A study of Homo sapiens with 10 samples.

Results

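The genes of serine synthesis and of the ATF4 stress response examined here, 10 in all, were followed in melanoma cell lines before and after they became resistant to a BRAF inhibitor and a MEK inhibitor. The genes were chosen with earlier results of these data known and were matched by symbol. All 10 were found once each among the 57955 genes of the deposited tables. PHGDH, PSAT1 and PSPH encode the enzymes that make serine from a glycolytic intermediate, and SHMT2 encodes the mitochondrial enzyme that converts serine to glycine and feeds one-carbon metabolism. ATF4 encodes the transcription factor of the integrated stress response, and ASNS, CHAC1, DDIT3, TRIB3 and SESN2 are among the genes it is known to induce.

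As background, amino acid shortage, haem deficiency, double-stranded RNA and misfolded protein in the endoplasmic reticulum each activate a kinase that phosphorylates the translation factor eIF2alpha. General translation then slows while the ATF4 mRNA is translated more efficiently, so that the amount of ATF4 protein can change without a change of its mRNA. ATF4 binds a composite C/EBP-ATF site and raises transcription of genes for amino acid synthesis and uptake, among them those of serine synthesis, and of genes that limit growth or promote cell death when stress persists. Melanoma cells differ widely in serine synthesis, and PHGDH lies in a chromosomal region that is gained in some melanomas.

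The samples were 5 melanoma cell lines carrying the BRAF V600E mutation, WM983A, WM278 and WM902B from primary tumours and WM983B and WM1617 from metastatic ones, each as the sensitive line and as the resistant line (E+BRes) derived from it. Resistance to encorafenib, which inhibits BRAF, and binimetinib, which inhibits MEK, had been selected over 3 to 5 months at doses raised from 1 nM to 200 nM, and the resistant lines were kept in 200 nM of both drugs. Resistance and the presence of the drugs therefore cannot be told apart in these libraries. All lines grew in RPMI medium with foetal bovine serum, and each line and state was sequenced as 1 library, so that the 5 lines were the replicates of a group. WM983A and WM983B came from the same patient, as did WM278 and WM1617, so the 5 lines stand for 3 patients of origin.

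Library totals were 13970608 to 16966008 counts in the sensitive and 13693922 to 18033247 in the resistant lines, and a level of 3 counts, used as the floor of detection, equals 0.166 to 0.219 CPM. Of the 8 melanocyte lineage markers examined, the summed normalised count was 6526 to 68427 in the sensitive and 1365 to 67333 in the resistant libraries, and the resistant library was lower than the sensitive one by a median log2 ratio of -5.95 (WM983A), -4.24 (WM983B) and -7.58 (WM902B), against 0.24 for WM278 and -0.16 for WM1617. Several of these markers were already low in sensitive WM278, with MITF at 163 normalised counts, against 4013 to 9537 in the other sensitive lines. PMEL was at 67.2 there and TYR at 8.58, against 6998 to 30700.5 and 640 to 3458. SOX10, at 4845, lay within the range of the other sensitive lines. TYRP1, a pigment enzyme, had a log2 fold change of -5.21 (unadjusted p = 0.0158) in the group comparison described below and of -1.71 (unadjusted p = 0.452) with cell line as a block, both by edgeR. Its log2 ratio within a line was -7.74 in WM983A, -6.50 in WM983B and -0.27 in WM1617, against 2.95 in WM278 and 0.96 in WM902B. In sensitive WM278, WM1617 and WM902B it held only 3.82 to 15.9 normalised counts. Of 10 markers of blood, endothelial and epithelial cells, 0 passed the filter on low counts, 4 were at 3 counts or fewer in every library, and the list summed to 7.84 to 59.5 normalised counts in the sensitive and 1.94 to 186 in the resistant libraries.

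Promoter sequences were examined for the core of the C/EBP-ATF site, because it is the sequence through which ATF4 is known to act on these genes. The RefSeq promoter table (GRCh38.p14, 250 bases before to 50 bases after the start) held 8 of the 10 genes, without PSPH and SHMT2. The letters TGATGNAA, sought on both strands and overlapping no other motif sought, were present for 2 of these 8 genes (25%), for 5 of 18 genes (27.8%) of a list of other ATF4 targets and for 1217 of 27305 genes (4.46%) in the whole table. The 2 matches are shown 5′ to 3′ on the strand of the gene, with the matched letters in capitals.
ASNS (chr7:97872458-97872487, minus strand, match starting 68 bases before the transcription start): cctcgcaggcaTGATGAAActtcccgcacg
CHAC1 (chr15:40953251-40953280, plus strand, match on the opposite strand starting 209 bases before the transcription start): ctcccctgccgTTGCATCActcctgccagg
A match describes letters only, and a window without one says nothing of whether ATF4 binds there.

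Levels of different genes were compared as CPM per kilobase of merged exon. On this scale the median over the 10 libraries was 141 for ATF4, 73.4 for PSAT1, 50.3 for SHMT2, 25.5 for PHGDH, 22.1 for TRIB3, 15.4 for ASNS, 15.4 for PSPH, 14.5 for DDIT3, 2.53 for SESN2 and 2.11 for CHAC1. The ranges over libraries of most neighbours in this order overlapped, and the exception was the step from DDIT3, at 8.06 to 34.8, to SESN2, at 1.38 to 7.14. The merged exons of PHGDH, with 9187 bases, include many alternative transcripts, which lowers its value per kilobase. By these medians ATF4 was the most abundant of the 10 mRNAs and CHAC1 and SESN2 the least abundant, although CHAC1, at 0.104 to 13.6, reached into the range of DDIT3.

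All further levels are normalised counts, that is, expected counts scaled by the TMM method, and a within-line ratio is the log2 of resistant over sensitive after 1 was added to both. A within-line ratio compares 1 library with 1 library and has no test, and in bulk RNA fewer cells with an mRNA and less of it per cell cannot be told apart. The groups were compared by edgeR's two-sided quasi-likelihood test over the 17288 genes that passed the filter, which included all 10 genes, with Benjamini-Hochberg adjustment.

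The mRNAs of the 4 serine enzymes were all lower in resistant WM902B and WM278, and 0 of the 4 passed the test over the 5 lines. PHGDH (chr1:119648411-119744218), the first enzyme of the pathway, had 3764 normalised counts in the sensitive library of WM983A, with WM983B at 2979, WM278 at 6150.3, WM1617 at 4552 and WM902B at 3351. In the resistant libraries WM983A had 1527, WM983B 4226, WM278 3103, WM1617 4680.0 and WM902B 1201. It was thus lower in the resistant library of all 3 primary lines, at log2 ratios of -1.30, -0.99 and -1.48 in WM983A, WM278 and WM902B, and higher in metastatic WM983B, at 0.50. In WM1617 it was 0.04, with a counting interval of -0.02 to 0.10 that included 0, and -0.0099 when plain CPM replaced the TMM scale. The group means were 4159 ± 1257 (SD, n = 5) in the sensitive and 2947 ± 1559 in the resistant lines, which overlapped, and edgeR gave a log2 fold change of -0.50 (SE 0.394, unadjusted p = 0.234, adjusted p = 0.826).

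PSAT1 (chr9:78297125-78330093), which encodes the aminotransferase of the second step, had the within-line ratio furthest below 0 of the serine genes. Its sensitive levels were 2356 (WM983A), 2589.8 (WM983B), 4519.5 (WM278), 2866 (WM1617) and 1156 (WM902B). The resistant levels were 3862, 1586, 2571, 1915 and 185 in the same order. In WM902B, where the sensitive line already had the lowest level of the 5, the ratio was -2.63 (95% counting interval, computed without the added count, -2.88 to -2.41), and for WM983B, WM278 and WM1617 it lay between -0.81 and -0.58. WM983A went the other way, at 0.71. The spread between lines was large, and the log2 fold change of -0.41 (SE 0.612) had an unadjusted p of 0.513 (edgeR, adjusted p = 0.922).

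PSPH (chr7:56011051-56051604), the phosphatase that releases serine, was the one gene of the 10 that was lower in the resistant library of every line. Sensitive WM983A had 676 normalised counts, WM983B 714, WM278 1073, WM1617 681 and WM902B 457. The resistant libraries had 616, 503, 799, 590.4 and 255 in the same order. The ratios ran from -0.13 in WM983A to -0.84 in WM902B, and in WM983A the counting interval, -0.30 to 0.03, included 0. A ratio below 0 in all 5 lines was seen for 921 of the 17288 genes (5.33%). The groups overlapped, at 720.0 ± 222 and 552 ± 198 (SD, n = 5), and the log2 fold change of -0.38 (SE 0.317) had an unadjusted p of 0.255 (edgeR, adjusted p = 0.838). With cell line as a replicate block PSPH reached -0.42 (SE 0.176) at an unadjusted p of 0.0490 and an adjusted p of 0.467, where 4.99% of all genes were lower at such a p. PSPH was the only 1 of the 10 genes with an unadjusted p within 0.05 in that fit, and DESeq2 with the same block gave it an unadjusted p of 0.0628.

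SHMT2 (chr12:57229573-57234935) was measured at 4691 normalised counts in sensitive WM983A, with WM983B at 3452, WM278 at 4699, WM1617 at 3563 and WM902B at 3052. Its resistant levels were 3055, 3679.6, 3464, 3589.5 and 1437 in the same order. Resistant WM902B stood below the other 4 resistant lines, which lay within 3055 and 3680, and its ratio was -1.09. As with PHGDH, the ratio was below 0 in the 3 primary lines. In metastatic WM983B and WM1617 it was 0.09 and 0.01, and for WM1617 the counting interval of -0.06 to 0.08 included 0. The log2 fold change was -0.35 (SE 0.272, unadjusted p = 0.221, edgeR, adjusted p = 0.821). On the opposite strand SHMT2 exons share 352 bases with ENSG00000276727 (25.4 to 99.96 counts) and 33 with NDUFA4L2 (3 to 32.5 counts).

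**Figure D1:**
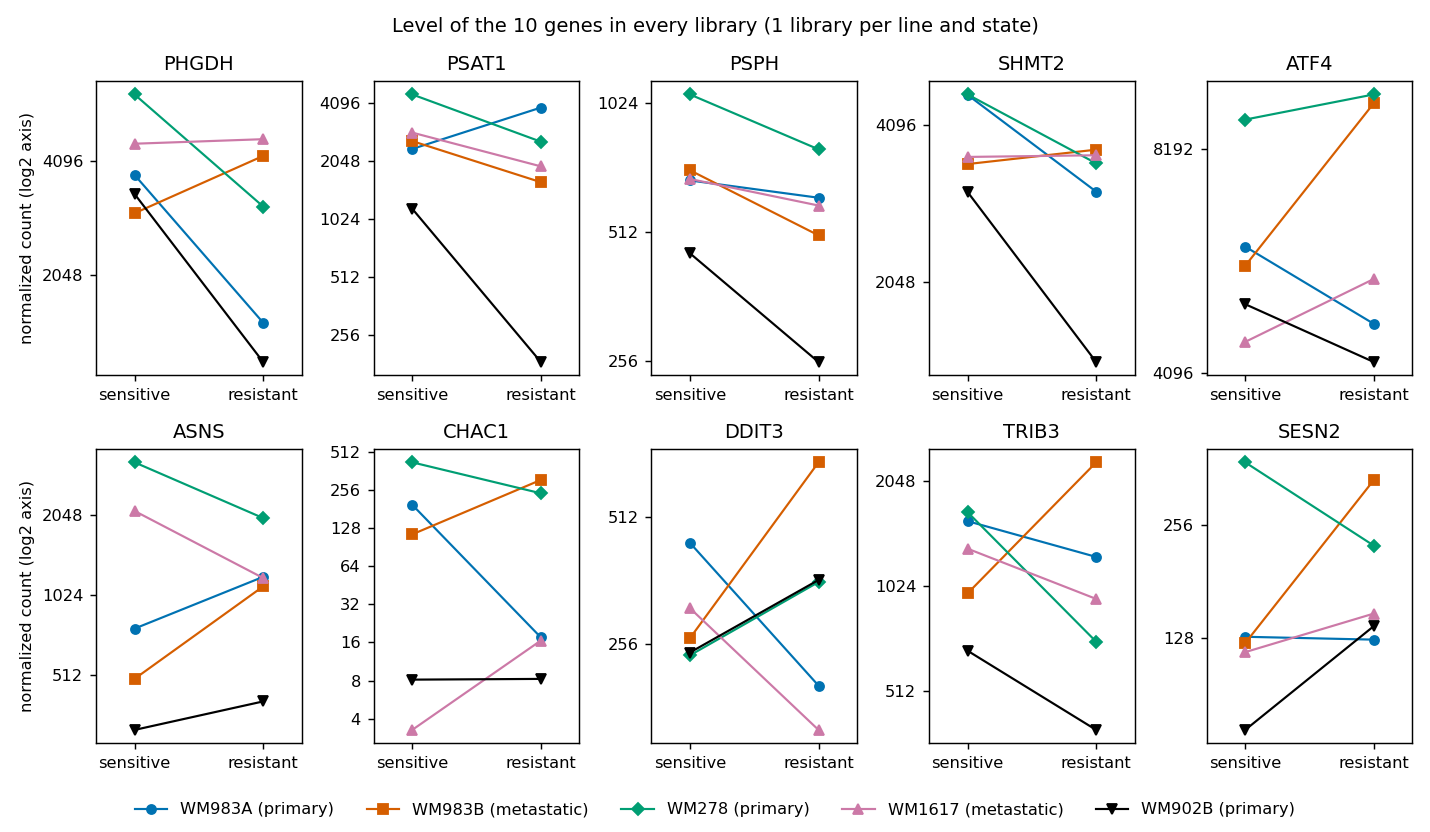
Normalised count, on a log2 axis, of the 10 genes in the sensitive and the resistant library of each of the 5 lines, 1 panel per gene and 1 point per library, with a line joining both libraries of a cell line. PSPH is lower on the right in all 5 lines, from 676, 714, 1073, 681 and 457 to 616, 503, 799, 590.4 and 255. ASNS, CHAC1 and DDIT3 are higher on the right in some lines and lower in others.

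Whether the stage of the tumour of origin separates the lines was examined for the within-line ratios, a comparison chosen after seeing the data. A ratio below 0 in all 3 primary lines and above 0 in both metastatic lines was found for PHGDH and SHMT2, that is, for 2 of the 10 genes and for 2.28% of all genes tested, with 4.56% separated in either direction. For both genes the sign in WM1617 rests on a ratio whose counting interval included 0, and with plain CPM that ratio was -0.0099 for PHGDH and -0.039 for SHMT2, so that neither kept the pattern. The mean ratio of PHGDH was -1.26 in the primary and 0.27 in the metastatic lines, and that of SHMT2 was -0.71 and 0.05. No test of this difference is given, because the genes were singled out by the separation of their lines. Since WM278 and WM1617, like WM983A and WM983B, share a patient, the lines are not independent of each other.

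ATF4 (chr22:39519695-39522683) spanned a 1.99-fold range over the sensitive and a 2.28-fold range over the resistant lines. WM983A had 6052 normalised counts in the sensitive state, WM983B 5705, WM278 8957, WM1617 4510.4 and WM902B 5067. The resistant levels were 4769, 9424, 9680.3, 5478 and 4239 in the same order. Its largest within-line ratio was 0.72, in WM983B, and the other 4 lay between -0.34 and 0.28, and the log2 fold change was 0.15 (SE 0.305, unadjusted p = 0.635, edgeR, adjusted p = 0.949). The pseudogenes ATF4P3 and ATF4P4 held 201 to 522 and 191 to 521 counts, and how reads shared with them were assigned is not given in the sources used here.

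ASNS (chr7:97851677-97872542), which makes asparagine and carries the matched letters shown above, spanned a wide range. The sensitive levels were 764 (WM983A), 494 (WM983B), 3245 (WM278), 2126 (WM1617) and 317 (WM902B). The resistant levels were 1199, 1103, 1998, 1187 and 406 in the same order. The lines drew closer together, from a 10.2-fold range in the sensitive to a 4.92-fold range in the resistant group, since the lines with low levels were higher after resistance, at ratios of 0.65, 1.16 and 0.36 in WM983A, WM983B and WM902B, and those with high levels were lower, at -0.70 in WM278 and -0.84 in WM1617. This narrowing of the range was not tested. The sensitive level by which the lines are sorted here is also the denominator of the ratio. The log2 fold change was -0.24 (SE 0.632, unadjusted p = 0.714, edgeR, adjusted p = 0.963), and its sign turned to 0.12 (unadjusted p = 0.725) with cell line as a replicate block. ASNS exons share 2415 bases with ENSG00000284707 on the same strand, and the pseudogene ASNSP1 held 0 to 65.8 counts.

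CHAC1 (chr15:40952962-40956512), an enzyme that degrades glutathione, had the widest range of the 10, from 3.26 to 423. Sensitive WM983A had 195 normalised counts, WM983B 114, WM278 423, WM1617 3.26 and WM902B 8.13. The resistant levels were 17.5, 307, 241, 16.5 and 8.24 in the same order. It was lower in WM983A, at -3.41 (counting interval -4.34 to -2.72), and higher in WM983B, at 1.42. In WM1617 it went from 3 to 19 counts, a log2 ratio of 2.04, or 5.08-fold without the added count, with a log2 counting interval of 0.58 to 4.74. WM278 and WM1617, of the same patient, differed 130-fold in the sensitive state, with a counting interval of 44.1 to 631 because WM1617 held only 3 counts. The group log2 fold change was -0.33 (SE 1.28, unadjusted p = 0.801, edgeR, adjusted p = 0.977).

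DDIT3 (chr12:57516588-57521737), which encodes the pro-apoptotic factor CHOP, had sensitive levels of 446 (WM983A), 264 (WM983B), 241 (WM278), 312 (WM1617) and 244 (WM902B). The resistant levels were 204, 692, 359, 160.1 and 364 in the same order. The ratio was above 0 in WM983B, WM278 and WM902B, at 1.39, 0.58 and 0.57, and below 0 in WM983A, at -1.12, and WM1617, at -0.96. The log2 fold change was 0.24 (SE 0.392, unadjusted p = 0.552, edgeR, adjusted p = 0.933). In the GENCODE annotation 355 bases of DDIT3 exon lie opposite exons of MARS, which held 1787 to 4745 counts, and whether counting used the strand is not given in the sources used here, so part of the DDIT3 count could belong to MARS. DDIT3 exons also share 105 bases with ENSG00000285133 on the same strand and 58 with MBD6 (530 to 1013 counts) on the opposite one.

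TRIB3 (chr20:362835-397559), a pseudokinase that dampens AKT signalling and ATF4 itself, had sensitive levels of 1573 (WM983A), 974 (WM983B), 1670.2 (WM278), 1311 (WM1617) and 667 (WM902B). The resistant levels were 1241, 2323, 707, 939 and 394 in the same order. It was higher in WM983B, at 1.25, and lower in the other 4 lines, by most in WM278, at -1.24. SESN2 (chr1:28259518-28282491), an inhibitor of mTORC1 that senses leucine, had 129, 124, 376, 117 and 72.8 normalised counts in sensitive WM983A, WM983B, WM278, WM1617 and WM902B. Its resistant levels were 127, 337, 225, 149 and 138 in the same order. It too was highest relative to the sensitive line in WM983B, at 1.44, and lowest in WM278, at -0.74. The log2 fold changes of -0.14 (SE 0.441) for TRIB3 and 0.25 (SE 0.474) for SESN2 had unadjusted p-values of 0.750 and 0.606 (edgeR, adjusted p = 0.969 and 0.942).

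Over the 5 lines, 0 of the 10 genes had both a 2-fold change and an adjusted p within 0.05, as did 0% of all 17288 genes, at a smallest adjusted p of 0.630. With such a fold change and an unadjusted p within 0.05, edgeR called 4.41% of all genes and 0 of the 10, and at that p whatever the fold change it called 1235 genes and again 0 of the 10. DESeq2's Wald test called 106 genes (0.613%) after adjustment and limma-voom 0, with 0 of the 10 genes called by either. The normalised counts of the groups did not overlap for 0.758% of all genes and overlapped for each of the 10. An exact two-sided permutation of the libraries, 5 against 5, gave unadjusted p-values of 0.214 to 0.968 for the 10 genes. It took the libraries as exchangeable and left out the pairing of the lines, so it does not test for a shift within lines. Where the 3 lines of different patients were compared alone (WM983A, WM278 and WM902B), PHGDH reached a log2 fold change of -1.20 at an unadjusted p of 0.0410, where 5.81% of all genes had such a p and a 2-fold change, and it was the only one of the 10 to do so. These lines are also the 3 primary lines, so leaving out the second line of a patient and keeping primary lines cannot be told apart. Without WM983B the log2 fold changes of ATF4, DDIT3 and SESN2 turned from above to below 0, to -0.027, -0.19 and -0.13. Those of ASNS, CHAC1 and TRIB3 turned from below to above 0 without WM278, to 0.079, 0.16 and 0.13, and that of CHAC1 also without WM983A, to 0.06.

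**Figure D2:**
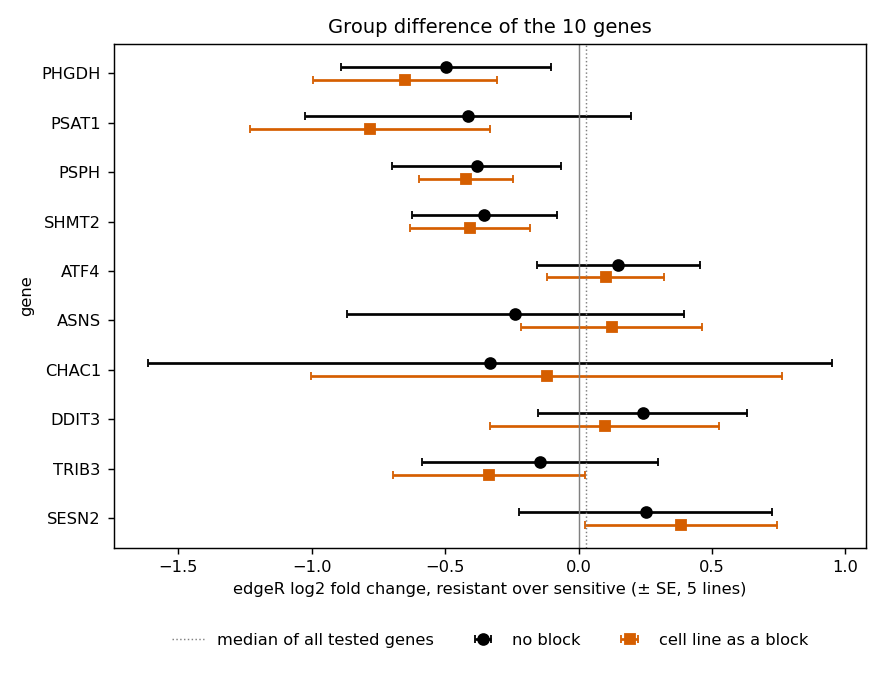
Log2 fold change of the 10 genes between the 5 resistant and the 5 sensitive libraries in edgeR's fit (points, with bars of 1 SE), without a block (black circles) and with cell line as a block (orange squares); the dotted line is the median of all tested genes, 0.03. The 4 serine genes lie below 0 in both fits, from -0.50 to -0.35 without the block, and the bars of CHAC1 are the longest, with an SE of 1.28.

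Line by line, resistant WM983B had higher mRNA levels of the whole ATF4 group and resistant WM902B lower levels of all 4 serine genes. Of the 50 within-line ratios of the 10 genes, 13 were at least 2-fold, 6 of them higher and 7 lower in the resistant library. The share of all genes pooled over the lines was not computed, so this total is not read as particular to the 10 genes. The share within each line is given with the count of that line. WM983B held 5 of the 6 higher ones, with 5 of the 10 genes at least 2-fold higher against 16.2% of all genes, and 0 at least 2-fold lower against 11.2%. All 6 genes of the ATF4 group were higher there, between 0.72 for ATF4 and 1.44 for SESN2, with a median of 1.32 against 0.00 for all tested genes, and between the percentiles 76.9 and 89.9 of the line. Among the serine genes of this line PSAT1 and PSPH were lower, at -0.71 and -0.50, and PHGDH and SHMT2 higher, at 0.50 and 0.09. Melanocyte markers and proliferation markers were lower in the same library, at medians of -4.24 and -0.84, and their part in the result was not tested.

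In resistant WM902B all 4 serine genes were lower, with a median ratio of -1.28, and PHGDH, PSAT1 and SHMT2 were at least 2-fold lower, that is, 3 of the 10 genes against 12% of all genes. They lay between the percentiles 2.98 and 15.5 of the line. The 6 genes of the ATF4 group had a median of 0.19, with SESN2 at 0.91 and TRIB3 at -0.76, and 0 of the 10 genes were at least 2-fold higher against 15.4% of all genes. The melanocyte and proliferation markers were also lower in this library, with medians of -7.58 and -0.78, and their part in the result was not tested.

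In WM278 the 4 serine genes and 4 of the 6 ATF4 group genes were lower, with medians of -0.63 and -0.72. TRIB3 alone was at least 2-fold lower, 1 of 10 genes against 7.02% of all genes, and 0 were at least 2-fold higher against 12%. Before resistance this line had the highest level of 9 of the 10 genes among the 5 sensitive lines, with DDIT3 the exception, and afterwards of 3 of the 10. The share of all tested genes that were highest in WM278 was not computed. Proliferation markers had a median of -0.88 in WM278 as well, and their part in the result was not tested.

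WM983A had PHGDH, CHAC1 and DDIT3 at least 2-fold lower, 3 of the 10 genes against 19.4% of all genes, and 0 at least 2-fold higher against 16.9%. It was the line with the widest spread of ratios over all tested genes, with an SD of 1.77, and the only one in which PSAT1 was higher. In WM1617, with the narrowest spread of the 5 (SD 0.602), CHAC1 was the 1 gene at least 2-fold higher against 2.83% of all genes, and 0 were at least 2-fold lower against 3.79%. For this line the same size of ratio ranks further out, and PSAT1 at -0.58, ASNS at -0.84 and DDIT3 at -0.96 lay at percentiles 9.94, 5.24 and 4.05.

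**Figure D3:**
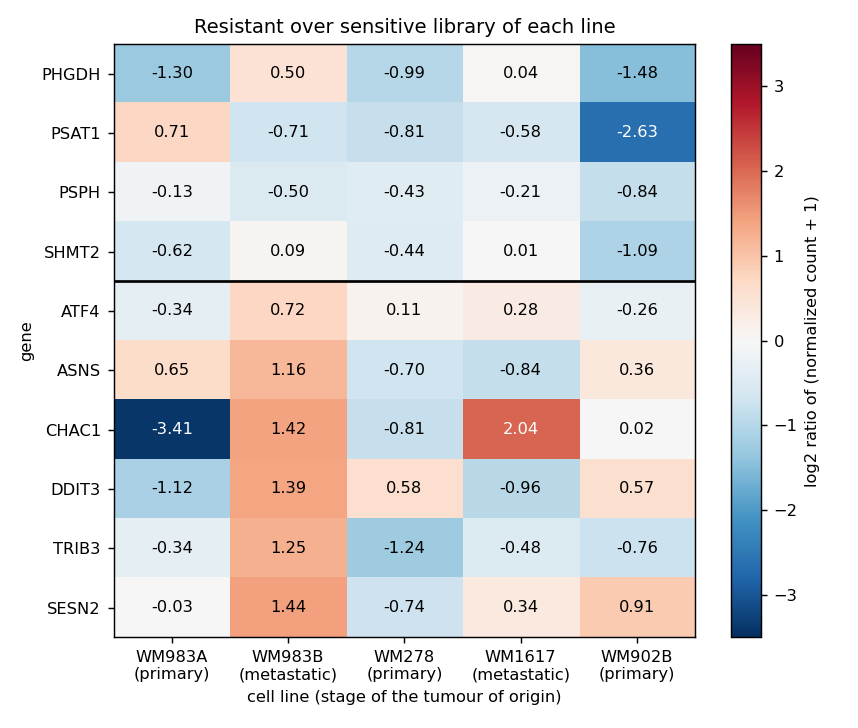
Log2 ratio of resistant over sensitive (normalised count + 1) for the 10 genes (rows, serine genes above the black line) in the 5 lines (columns, with the stage of the tumour of origin), red for higher and blue for lower in the resistant library. The WM983B column is red for all 6 genes below the line, from 0.72 to 1.44, and the WM902B column is blue for all 4 genes above it, from -2.63 to -0.84.

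**Figure D4:**
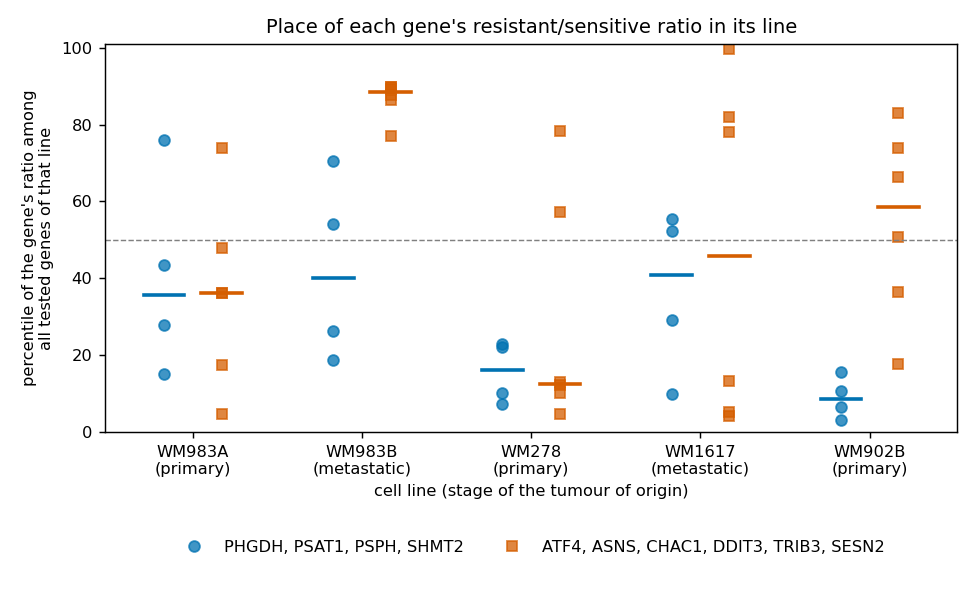
Percentile of each gene's within-line ratio among the 17288 tested genes of the same line (vertical axis), for the 4 serine genes (blue circles) and the 6 ATF4 group genes (orange squares), with short bars at their medians and a dashed line at the middle of the scale. The 4 serine genes of WM902B lie between 2.98 and 15.5, and the 6 ATF4 group genes of WM983B between 76.9 and 89.9.

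The order of the lines was partly the same in both states. Sensitive WM902B had the lowest level of 6 of the 10 genes among the sensitive lines, and resistant WM902B of 8 of the 10 among the resistant ones. Resistant WM983B had the highest level of 5 of the 10. The share of all tested genes with such an order was not computed, so these counts are not read as particular to the 10 genes. In the lines of 1 patient, sensitive WM983A and WM983B differed by less than 2-fold for all 10 genes, beside 11.6% of all tested genes that differed by 2-fold or more. Their resistant lines differed at least 2-fold for 5 of the 10 beside 37.5% of all genes, with PSAT1 higher in WM983A, at 3862 against 1586, and PHGDH, CHAC1, DDIT3 and SESN2 higher in WM983B, DDIT3 at 692 against 204. Sensitive WM278 and WM1617 differed at least 2-fold for CHAC1 and SESN2, 2 of the 10 beside 35.9% of all genes, and their resistant lines for CHAC1 and DDIT3, again 2 of the 10, beside 37.7%.

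The 10 libraries are 5 pairs of related lines and not independent samples. Among the serine genes Pearson's r of the log2 levels ran from 0.58 (PHGDH and PSAT1) to 0.93 (PSAT1 and PSPH), with PHGDH and SHMT2 at 0.82. ATF4 had an r of 0.88 with CHAC1, 0.83 with SESN2, 0.52 with ASNS, 0.47 with TRIB3 and 0.41 with DDIT3. CHAC1 held only 3 to 19 counts in WM1617 and WM902B. DDIT3 had an r of -0.25 to 0.01 with the 4 serine genes and of -0.05 with ASNS. The genes outside the 10 whose levels were most like the mean standardised level of the 10 were XPOTP1 (r = 0.931), FKBP11 (0.927), ZNF786 (0.926), ENSG00000224365 (0.914) and DIDO1 (0.914), and their within-line ratios lay between -0.76 and 0.71. These are descriptions without a test.

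The other genes of the pathways were taken from fixed lists, each read against the 4.81% of all genes that were higher and the 2.34% that were lower at an unadjusted p within 0.05 by edgeR, whatever the fold, and beside the median log2 fold change of all genes, 0.03. No gene of any list passed after adjustment. Of 17 further serine, glycine and one-carbon genes 16 were tested, 1 was higher and 2 were lower at such a p, and the median log2 fold change was -0.22. GLDC, the decarboxylase of the glycine cleavage system, was lower at -2.55 (SE 1.04, unadjusted p = 0.0326), with normalised counts of 589, 214, 75.5, 100.3 and 484 in sensitive WM983A, WM983B, WM278, WM1617 and WM902B against 90.4, 14.3, 13.97, 130.4 and 0.569. In WM902B, whose resistant library was under the floor of 3 counts per library, this was at least 157-fold lower, and WM1617 went the other way. AMT, the aminomethyltransferase of the same system, was higher at 1.53 (SE 0.526, unadjusted p = 0.0148, and 0.0501 with cell line as a block), with 10.9 to 15.6 normalised counts in the sensitive and 13.2 to 95.5 in the resistant libraries. Its within-line ratio was 2.84 in WM983B and 1.70 in WM902B. In WM983A, WM278 and WM1617 it was 0.11, 0.61 and 0.33, with counting intervals that included 0. SLC25A32, the mitochondrial folate carrier, was lower at -0.65 (SE 0.227, unadjusted p = 0.0160), in 4 of the 5 lines. With cell line as a block 0 of this list were higher and 5 lower, beside 5.7% and 4.99% of all genes. In WM902B 7 of the 16 were at least 2-fold lower and 2 higher, beside 12% and 15.4% of all genes, at a median ratio of -0.71. In WM983B 6 were lower and 2 higher, beside 11.2% and 16.2%, at a median of -0.76. The medians of the other lines lay between -0.32 and 0.11.

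The list of other ATF4 targets had 25 genes, of which 22 were tested, and 2 were higher and 0 lower at such a p, with a median log2 fold change of 0.27. JDP2, a bZIP repressor, was higher in all 5 lines, with 80.8 to 220.0 normalised counts in the sensitive and 277 to 675 in the resistant libraries, which did not overlap, and a log2 fold change of 1.84 (SE 0.358, unadjusted p = 0.000364, adjusted p = 0.630). ATF3, a stress-induced bZIP factor, was higher in 4 of the 5 lines, at 1.70 (SE 0.539, unadjusted p = 0.00979), and lower in WM1617, at -0.69. With the block 3 were higher and 1 lower, beside 5.7% and 4.99% of all genes. In WM983B 12 of the 22 were at least 2-fold higher and 0 lower, beside 16.2% and 11.2% of all genes. Their median ratio there was 1.08, whereas the medians of the other 4 lines lay between -0.19 and -0.03. The genes of this list thus had their highest median in the same line as the 6 ATF4 group genes, and both sets of values come from the same pair of libraries.

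**Figure D5:**
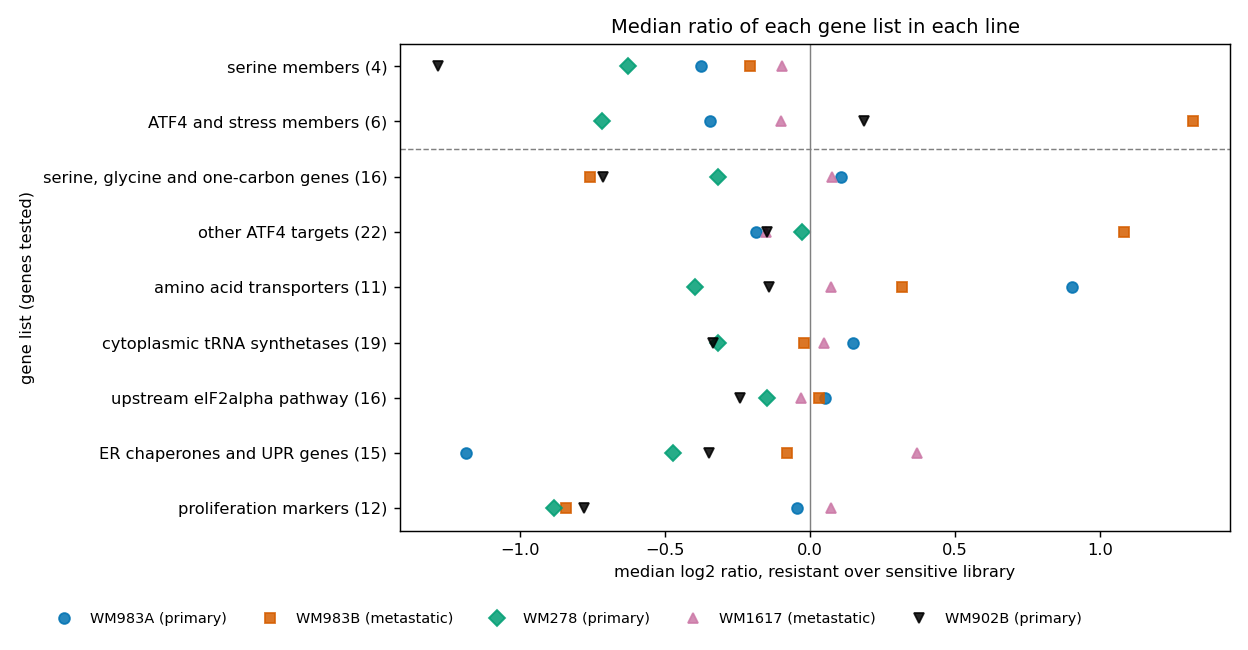
Median log2 ratio of resistant over sensitive (horizontal axis) of the 4 serine genes, the 6 ATF4 group genes and 7 fixed gene lists, with 1 point per line and the number of genes tested in brackets. WM983B lies furthest to the right for the ATF4 group genes, at 1.32, and for the other ATF4 targets, at 1.08, and WM902B furthest to the left for the serine genes, at -1.28.

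Amino acid transporters numbered 12, of which 11 were tested, and 0 were higher and 1 lower, with a median log2 fold change of 0.29. The lower one was SLC36A1, a lysosomal amino acid transporter, at -0.63 (SE 0.279, unadjusted p = 0.0453), which was lower in all 5 lines. Their median within-line ratio was 0.90 in WM983A. In WM983B it was 0.32, with 2 of the 11 at least 2-fold higher and 3 lower, beside 16.2% and 11.2% of all genes. Of 20 cytoplasmic tRNA synthetases 19 were tested, 0 were higher and 0 lower, and the median was -0.15. Their median within-line ratio in WM983B was -0.02. SARS, which charges tRNA with serine, had a log2 fold change of -0.36 (unadjusted p = 0.237) and HARS of -0.36 (unadjusted p = 0.134, and 0.0495 with cell line as a block), the values furthest from 0 in that list. Of the 16 genes upstream of ATF4, the eIF2alpha kinases, the subunits of eIF2 and eIF2B and their regulators, all 16 were tested and 0 were higher or lower, at a median of -0.13, with EIF2B3 at -0.50 (unadjusted p = 0.0899) and EIF2B5 at -0.41 (unadjusted p = 0.165) furthest from 0. In WM983B the median ratio of these upstream genes was 0.03.

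The 15 chaperones and other genes of the unfolded protein response were all tested, with a median of -0.19, 0 higher and 1 lower. The lower one was SDF2L1, an endoplasmic reticulum co-chaperone, at -0.54 (SE 0.231, unadjusted p = 0.0404, and 0.0572 with cell line as a block). Their median ratio was -0.08 in WM983B, where the ATF4 group was higher. In WM983A it was -1.18, and 9 of the 15 were at least 2-fold lower, beside 19.4% of all genes. CHAC1 and DDIT3 were lower in WM983A as well. In WM1617 all 15 had ratios above 0, at a median of 0.37. DDIT3 was lower in that line, at -0.96, and CHAC1 was higher, at 2.04, on 3 and 19 counts. Whether CHAC1 and DDIT3 change together with this list was not tested. The 12 proliferation markers had a median of -0.51, with 0 higher and 2 lower, namely RRM2, a subunit of ribonucleotide reductase, at -1.12 (SE 0.444, unadjusted p = 0.0298) and MCM5, a replicative helicase subunit, at -0.59 (SE 0.226, unadjusted p = 0.0239). With the block 4 of these 12 were lower, beside 4.99% of all genes. All 12 markers had ratios below 0 in WM983B, WM278 and WM902B, and their median in WM983B was -0.84.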

How the data were processed

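Polyadenylated RNA of 5 sensitive and 5 resistant cell lines was sequenced on a NextSeq instrument (single-end, 75 cycles). Reads were aligned by the authors to GRCh38 with HISAT2 (also named in the submitters' processing notes) and quantified and normalised in StrandNGS; tool versions, gene annotation, strand setting and the treatment of shared reads are not given in the sources used here. The deposited raw values are expected counts per gene. The deposited normalised values are on a log2 scale and hold the ratio to the sensitive library of the same line, rebuilt here to within 1.58e-06; they served as an alternative. In sensitive WM983B 455 raw values were held as dates and were recovered from the log2 ratios; none belongs to the 10 genes.

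Expected counts were rounded, filtered with filterByExpr by condition (17288 of 57955 genes kept), scaled by TMM and tested with edgeR 4.0.16 (glmQLFit, glmQLFTest) in R 4.3.3, without a block, since its RNA-seq methods describe no paired test. DESeq2 1.42.0, limma 3.58.1 and Python 3.11.15 with scipy 1.17.1 served the alternatives and permutation tests, and the steps were tested on simulated data. Each resistant line derives from the sensitive line of its name. After removal of group means both libraries of a line correlated across genes at -0.06 (WM983A), 0.54 (WM983B), 0.67 (WM278), 0.67 (WM1617) and 0.38 (WM902B). Because the pairing follows from the derivation, cell line was used as a replicate block in an alternative fit.

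P-values measure the spread between lines, since no line has a repeat library. Counting intervals are exact 95% intervals and, like the floor of 3 counts, cover counting error only. Positions and merged exon lengths are from GENCODE 44, promoters from RefSeq (GRCh38.p14). Named were the 10 genes, of each list the genes at an unadjusted p of at most 0.05 (at most 4), else the 2 with the largest log2 fold change, the 5 genes most like the mean of the 10, and genes that may share reads (10 further pseudogenes of the 10 genes, not named, held at most 13 counts in any library). The genes and lists were chosen with earlier results of these data known.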

Additional observations from a re-analysis of the deposited data

Results flagged for a closer look

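SHMT2 in resistant WM902B, at 10.49 on the log2 scale of normalised counts, stood apart from the other 4 resistant lines, with a gap to the nearest that was 0.802 of the range of the group against a critical value of 0.71. Of the 30 groups of 5 values examined, chance alone would mark about 1 in 20. The stages of the tumour of origin went opposite ways for PHGDH, whose mean within-line log2 ratio was higher by 1.53 in the metastatic than in the primary lines, and for SHMT2, by 0.77. No test of the difference between stages is given, since these genes were singled out by the separation of their lines. The WM1617 ratios of both, 0.04 and 0.01, had counting intervals that included 0 and were -0.0099 and -0.039 with plain CPM.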

How the results depend on the processing

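The number of genes past the adjusted threshold was 0 with each edgeR and limma-voom alternative, 106 with DESeq2 and 507 with DESeq2 and cell line as a replicate block. Unadjusted with a 2-fold change, 763 genes became 1493 with DESeq2 and the block, 2258 without a filter, and 419 (without WM902B) to 1493 (without WM1617) with 1 line left out; without WM983B there were 422. With the replicate block PSPH gained an unadjusted p of at most 0.05, at -0.42, but not with DESeq2 and the block, and no other of the 10 genes changed its call. With 1 line per patient 1 of the 10 genes, PHGDH at -1.20, passed unadjusted; those 3 lines are the primary lines.

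ASNS changed sign, to 0.12 with the replicate block, with DESeq2 and the block and with limma-voom, and to 0.079 without WM278. With 1 line left out the values were -0.44 to 0.079 for ASNS, -1.14 to 0.16 for CHAC1 (above 0 without WM983A, at 0.06, or without WM278, at 0.16), -0.68 to 0.13 for TRIB3 (0.13 without WM278), -0.19 to 0.57 for DDIT3, -0.13 to 0.77 for SESN2 and -0.027 to 0.25 for ATF4, the last 3 below 0 without WM983B, at -0.19, -0.13 and -0.027. With 1 line per patient these 3 were -0.014, -0.25 and -0.11. The causes were not tested. PHGDH, PSAT1, PSPH and SHMT2 kept values below 0 in every alternative run, and with 1 line left out lay at -0.76 to -0.32, -0.83 (without WM983A) to -0.25 (without WM278), -0.45 to -0.32 and -0.48 to -0.24. CHAC1 had no value where 10 counts were required in every library.

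At a 1.5-fold in place of a 2-fold limit, the genes higher of the 10 numbered 6 in WM983B (26.8% of all genes), 2 in WM983A (28.3%), 1 in WM902B (25.5%), 1 in WM1617 (8.33%) and 0 in WM278 (21.5%), and those lower 6 in WM278 (16.7%), 5 in WM902B (23%), 4 in WM983A (28.6%), 2 in WM1617 (9.87%) and 1 in WM983B (22.9%). With the deposited ratios 2 were at least 2-fold lower in WM278, and with plain CPM 1 in WM1617. Of the 250 alternative within-line ratios of single genes 13 moved beyond their counting interval. With 1 library per line and state no within-line difference has a replicate check, and CHAC1 in WM1617 and WM902B is limited by depth, at 3 to 19 counts.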
